A study of Bos grunniens with 18 samples.

Results

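The B cell identity genes are the genes by which a B lymphocyte is recognised in a mixture of blood cells. They were chosen by name alone, as the rows of the deposited table whose gene name is MS4A1, CD79A, CD79B, PAX5, EBF1, BANK1, BLK, CD22 or CR2. Of these 9 names, 8 are described here among the 20607 genes of the table, and CR2 was not analysed here. All 8 passed the filter on low counts that left 14508 genes for testing.

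The blood came from adult female yaks (Bos grunniens) of 4 to 8 years in anestrus (Y-A group), estrus (Y-E group) or pregnancy (Y-P group), with 6 libraries in each stage and 18 in all. No genotype is given. The methods describe estrus synchronised by a progesterone pessary, a prostaglandin analogue and gonadotropin-releasing hormone, in a herd bred by artificial insemination, so the stage and that hormone programme cannot be told apart. Whole blood was taken into EDTA tubes and TRIzol LS, and mRNA was purified with oligo(dT), so every kind of blood cell contributed to each library. In the study 6 cows were tracked through the stages. Within a stage the libraries are numbered 1 to 6, but neither the labels nor the methods state that a replicate number names a cow.

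The B cell receptor is an immunoglobulin held at the membrane by the CD79A and CD79B chains, whose cytoplasmic tails pass the signal on once antigen is bound. Src family kinases such as BLK act on those tails, the adaptor BANK1 and the inhibitory lectin CD22 tune the signal, and MS4A1 encodes the surface protein CD20. The transcription factors EBF1 and PAX5 establish the B cell programme and keep it in place. In blood, B cells are a part of the lymphocytes, which share the circulation with neutrophils, monocytes, platelets and red cells.

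The libraries held 30247267 to 48401076 counts. Hemoglobin genes took 3.10 to 16.7% of the counts in the Y-A group and 0.0272 to 0.376% in the Y-P group. In the Y-E group they took 0.0899 to 0.713% in 5 libraries and 8.36% in Y-E replicate 6, which thus stood apart from its stage. Results that rest on that library are given with and without it. Markers of B cells, T cells, NK cells, neutrophils, monocytes, red cells, platelets and plasma cells were all detected, and none of the markers measured was at or under 3 counts in every library.

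Between genes, levels are compared as FPKM, in which the counts are scaled by exon length and by depth. Among the receptor chains, CD79A (ENSBGRG00000014607, chromosome 20, 64603376 to 64607684) was the highest of the 8 genes, at 360 ± 182 FPKM (mean ± SD, n = 18). CD79B (ENSBGRG00000012785, chromosome 19, 17223542 to 17227910) had 54.9 ± 25.2 FPKM. CD79A thus stood well above its partner in FPKM, although each CD79 dimer holds one chain of either kind. FPKM divides by exon length, implied as 959 bases for CD79A and 2559 for CD79B. In counts, the ratio of CD79A to CD79B was 1.71 to 3.05, with a median of 2.42. Counts are not scaled by length and so favour the longer gene, here CD79B.

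The surface proteins MS4A1 (ENSBGRG00000014366, chromosome 13, 4607080 to 4623123) and CD22 (ENSBGRG00000015347, chromosome 20, 70552734 to 70568679) had 165 ± 72.0 and 65.9 ± 21.8 FPKM. The adaptor BANK1 (ENSBGRG00000002809, chromosome 6, 103619329 to 104085288) had 51.0 ± 18.3 FPKM, and the kinase BLK (ENSBGRG00000002624, chromosome 7, 115630178 to 115674925) had 18.3 ± 6.33 FPKM. BANK1 is the one gene of the 8 that overlaps other rows of the table, 3 in all and 2 of them on its own strand, so some of its counts may belong to them.

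The transcription factors were the lowest, with 11.9 ± 5.58 FPKM for PAX5 (ENSBGRG00000002053, chromosome 7, 57228551 to 57441670) and 6.70 ± 2.97 FPKM for EBF1 (ENSBGRG00000015942, chromosome 8, 76540267 to 77001746). Positions are those of the deposited table, on the Ensembl v101 genome of Bos grunniens that the study names. The lowest count of any of the 8 genes in any library was 207, for EBF1, so counting error is small beside the spread between libraries. Among CD22, CD79B and BANK1, and between PAX5 and EBF1, neighbours in this order differed by less than the SD of the higher gene.

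**Figure D1:**
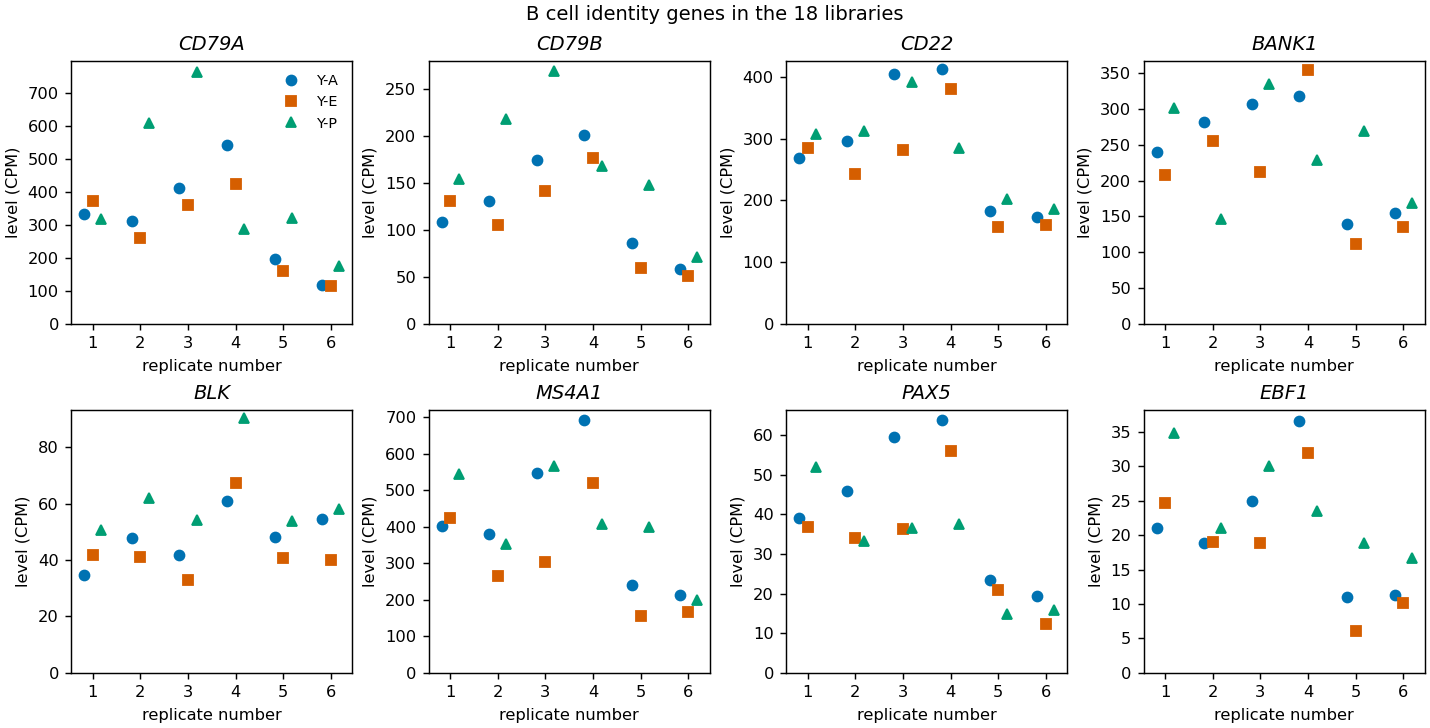
Level in CPM (counts scaled to library size after TMM normalization, vertical axis from 0) of each B cell gene in the 18 libraries, by replicate number (horizontal axis, points of 1 number set slightly apart) and stage (colour and shape). For every gene except BLK the Y-A and Y-E libraries numbered 5 and 6 lie lowest of their stage, and the 3 stages overlap in every panel.

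The first comparison asks how the B cell genes differed between estrus and anestrus. Here and below, differences between libraries are given as CPM, the counts scaled to library size after TMM normalization, and a gene passed at an adjusted p under 0.05 in edgeR's quasi-likelihood test over all 14508 genes. The lowest, median and highest level of CD79A was 117, 322 and 542 CPM in the Y-A group and 114, 310 and 422 CPM in the Y-E group. MS4A1 had 212, 390 and 692 CPM in the Y-A group and 154, 284 and 520 CPM in the Y-E group. In both stages the low end came from the libraries numbered 5 and 6, and the groups overlapped for each of the 8 genes.

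None of the 8 genes passed in Y-E vs. Y-A, where 0.0207% of all tested genes did. None had an unadjusted p under 0.05 in edgeR, as 6.2% of all tested genes had, or in DESeq2. The DESeq2 share was 10.6% of the 5814 genes given an adjusted p there, which EBF1 was not. The estimates were nevertheless all below 0, from −0.43 for MS4A1 (95% CI −1.11 to 0.25, adjusted p = 0.989 by edgeR) to −0.13 for BLK (95% CI −0.49 to 0.24). Their median log2 fold change was −0.19, against −0.01 over all tested genes. The 8 genes vary together over the libraries, as shown further on, so that their common sign does not count 8 times. Without Y-E replicate 6, which was the lowest library of its stage for CD79A, CD79B and PAX5, the median was −0.09.

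With the replicate number as a block, none of the 8 passed either, where 0.0965% of all genes did. The intervals became narrower, and those of MS4A1 (−0.44, 95% CI −0.82 to −0.06) and PAX5 (−0.37, 95% CI −0.70 to −0.05) no longer held 0, although the adjusted p was 0.509 for both by edgeR. PAX5 was lower in estrus than in anestrus in 6 of 6 numbers.

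The second comparison sets pregnancy against anestrus. BLK had 34.7, 48.02 and 61.0 CPM (lowest, median, highest) in the Y-A group and 50.8, 56.2 and 90.4 CPM in the Y-P group. The pregnant libraries lay in the upper part of the anestrous range or above it. CD79B had 58.3, 120 and 201 CPM in the Y-A group and 70.7, 161 and 269 CPM in the Y-P group. PAX5 had 19.3, 42.5 and 63.8 CPM in the Y-A group and 14.8, 35.0 and 52.0 CPM in the Y-P group.

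None of the 8 genes passed in Y-P vs. Y-A, where 5.83% of all tested genes did, and 5 estimates were above 0 and 3 below. None had an unadjusted p under 0.05 in edgeR, as 22.7% of all genes had. In DESeq2 1 had one, as 26.3% of the 13369 genes given an adjusted p there had. The receptor chains were at 0.37 for CD79A (95% CI −0.44 to 1.18) and 0.44 for CD79B (95% CI −0.27 to 1.15) on the log2 scale. Without Y-P replicates 2 and 3, picked for their high CD79A level, they were at −0.22 and 0.10. BLK was at 0.36 (95% CI −0.01 to 0.73, adjusted p = 0.233 by edgeR), and PAX5 was the lowest at −0.40 (95% CI −1.17 to 0.36). MS4A1, CD22 and BANK1 were close to 0, at −0.003, −0.04 and 0.01, and MS4A1 and CD22 turned to 0.14 and 0.10 when libraries were scaled by their size only.

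With the replicate block, 1 of the 8 genes passed, where 8.84% of all genes did. This was BLK, at 0.35 (95% CI 0.13 to 0.56, adjusted p = 0.0462 by edgeR), higher in pregnancy in 6 of 6 numbers. The call was at the edge of the threshold: of 18 blocked fits that each left out 1 library, BLK passed in 1, and its adjusted p ran from 0.0463 to 0.119. Without Y-E replicate 6, which belongs to neither stage compared, it was 0.0535.

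The third comparison sets pregnancy against estrus. BLK had 33.1, 40.9 and 67.5 CPM in the Y-E group, against 50.8, 56.2 and 90.4 CPM in the Y-P group. Of the Y-E libraries only replicate 4, at 67.5 CPM, reached into the range of pregnancy, and replicate 4 was also the highest of the Y-P group. CD79B had 50.4, 118.3 and 177 CPM in the Y-E group, against 70.7, 161 and 269 CPM in the Y-P group, and it was higher in pregnancy in 5 of 6 numbers, all but number 4.

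Without a block none of the 8 genes passed in Y-P vs. Y-E, where 14.4% of all tested genes did, and 1 had an unadjusted p under 0.05, as 29.3% of all genes had. Of the 8 estimates 7 were above 0, with a median of 0.41 against 0.04 over all tested genes. BLK was at 0.48 (95% CI 0.12 to 0.85, 1.40-fold, adjusted p = 0.0717 by edgeR). DESeq2, in which 20.6% of the 13769 genes given an adjusted p passed, gave BLK an adjusted p of 0.046. CD79B was at 0.63 (95% CI −0.08 to 1.34), CD79A at 0.55 (95% CI −0.27 to 1.36) and MS4A1 at 0.43 (95% CI −0.26 to 1.11). Without Y-P replicates 2 and 3, picked for their high CD79A level, CD79A was at −0.04. EBF1 was at 0.39 (95% CI −0.33 to 1.10), while PAX5 was at −0.05 (95% CI −0.81 to 0.72), a sign that turned to 0.09 when libraries were scaled by their size only.

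With the replicate block, 2 of the 8 genes passed in Y-P vs. Y-E, where 18% of all tested genes did, a share near that of the 8. BLK rose by 0.49 on the log2 scale (95% CI 0.27 to 0.71, adjusted p = 0.00542 by edgeR), and it was higher in pregnancy in 6 of 6 numbers. CD79B rose by 0.67 (95% CI 0.34 to 0.996, adjusted p = 0.00966 by edgeR), or 1.59-fold. Both passed in all 18 blocked fits that left out 1 library. Without Y-E replicate 6 their adjusted p-values in the blocked fit were 0.0157 and 0.0187.

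The other members stayed on the far side of the threshold in that blocked fit, some closely. MS4A1 was at 0.51 (adjusted p = 0.063 by edgeR), EBF1 at 0.54 (adjusted p = 0.0705) and CD79A at 0.57 (adjusted p = 0.0809). BANK1, CD22 and PAX5 were at 0.27, 0.19 and −0.03. The count rested in part on Y-P replicate 4: without that library 6 of the 8 genes passed, all but PAX5 and BANK1, where 17.5% of all genes did. In Y-P replicate 4 the level of 7 of the 8 genes lay below that of the Y-A and Y-E libraries of the same number, while BLK lay above both.

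**Figure D2:**
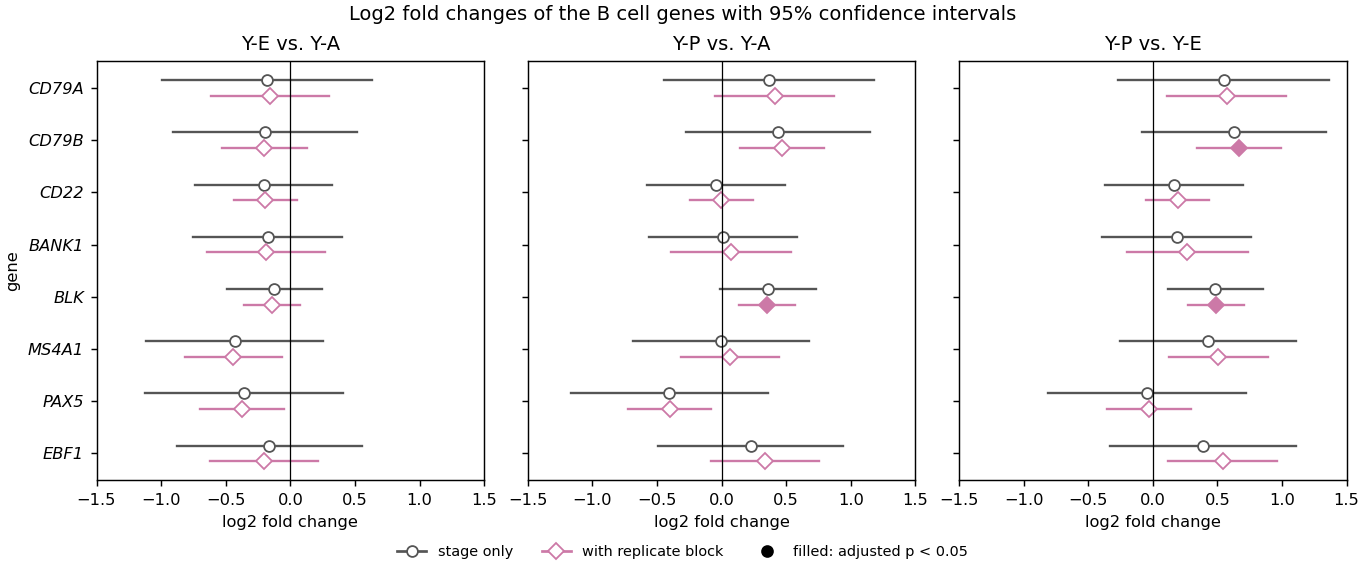
Log2 fold change (horizontal axis) of each B cell gene in the 3 comparisons, with 95% confidence intervals as bars, from the fit with stage only (grey circles) and the fit with the replicate number as a block (pink diamonds). Filled symbols passed at an adjusted p under 0.05, which were BLK and CD79B in Y-P vs. Y-E and BLK in Y-P vs. Y-A, all with the block.

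In bulk blood, fewer cells of a type and less RNA per cell cannot be told apart, and a change in other cells shifts the share of every gene. Beside the differences of Y-P vs. Y-E, the summed level of the 4 T cell markers measured of 7 was 541 to 711 CPM in the Y-E group and 646 to 1196 CPM in the Y-P group. The 4 neutrophil markers of 5 summed to 3809 to 8112 CPM in the Y-E group and 2155 to 3143 CPM in the Y-P group, without overlap. The 4 monocyte markers of 5 summed to 451 to 868 CPM and 339 to 635 CPM.

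The other cell types moved as follows over the same stages. The 4 red cell markers of 5 summed to 444 to 10938 CPM in the Y-A group and 37.8 to 124 CPM in the Y-P group, with 4635 CPM in Y-E replicate 6. The 3 NK cell markers of 5 and the 1 platelet marker of 4 overlapped in range between all stages, as did the 5 plasma cell markers of 6. What part these cells had in the values of the B cell genes was not tested.

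For each of the 8 genes, more of the sum of squares of log2 CPM lay between the 6 replicate numbers than between the 3 stages. The mean of the 3 libraries of a number ran from 135 CPM (number 6) to 513 CPM (number 3) for CD79A, a 3.80-fold range. For PAX5 it ran from 15.8 CPM (number 6) to 52.4 CPM (number 4), and for CD22 from 173 CPM (number 6) to 360 CPM (number 3). Numbers 5 and 6 had the lowest means for 7 of the 8 genes. BLK was the exception, with the lowest means in numbers 1 and 3 (42.4 and 43.1 CPM) and the highest in number 4 (73.0 CPM).

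A test of the replicate number in the blocked fit, added after the values had been seen, gave 7 of the 8 genes at an adjusted p under 0.05, where 2.73% of all tested genes passed. The adjusted p was 0.00221 for PAX5, 0.00396 for CD22 and CD79B, 0.0165 for MS4A1, 0.0187 for CD79A, 0.0261 for EBF1 and 0.0296 for BLK, all by edgeR. BANK1 was at 0.22. Most of the 8 genes vary together over the libraries, as shown further on, so those that passed do not count as separate results. Number 6 holds the libraries with the most hemoglobin in the Y-A group (16.7%) and in the Y-E group (8.36%), and its Y-P library also held the most of its stage (0.376%, against 0.0272 to 0.117% in the others). That Y-P library was the lowest of its stage for CD79A, CD79B, CD22, MS4A1 and EBF1. Number 5, the other low number, held 7.38% hemoglobin in the Y-A group, 0.610% in the Y-E group and 0.0416% in the Y-P group. Y-A replicate 1 held 12.1%, with MS4A1 at 401 CPM against a stage median of 390 CPM. What part hemoglobin had in these levels was not tested.

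Other markers moved with the mean z-score of the 8 genes over the 18 libraries. The summed level of the monocyte markers had a Pearson r of −0.62 with it, the plasma cell markers −0.56, the red cell markers −0.45, the platelet marker −0.30, the neutrophil markers −0.25, the T cell markers 0.21 and the NK cell markers −0.02. The plasma cell genes did not share one sign. Of the 4 highest in FPKM, PRDM1 and XBP1, which are in that sum, had an r of −0.48 and −0.33. DERL3 and POU2AF1, which are not in it, had 0.85 and 0.63. Of 8 monocyte genes 3 differed between the numbers. CD163 and FCN1 (adjusted p = 0.00513 and 0.00445 by edgeR) had an r of −0.80 and −0.77 with the score. MS4A7 (adjusted p = 0.0228 by edgeR) went the other way, with an r of 0.16. The remaining monocyte genes had an r of −0.70 to −0.008. The part of these cells in the differences between numbers was not tested.

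The count of B cell genes that differed between numbers depended on the libraries numbered 6. Without Y-E replicate 6, PAX5, CD22 and CD79B passed, 3 of the 8 genes, where 1.11% of all genes did. Without Y-A replicate 6, 4 of the 8 passed, and 1.34% of all genes. Over all 18 fits that left out 1 library the count ran from 3 to 7, and PAX5, CD22 and CD79B passed in each of them. Since the study followed the same cows, the cow and anything else that its number stands for cannot be told apart.

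Of the sum of squares of log2 CPM over the 18 libraries, the replicate number held a median of 71.5% in the 8 genes and the stage 9.85%. Over all tested genes the medians were 32.3% for the number and 17.98% for the stage. The 6 numbers take a larger share than the 3 stages even where neither has an effect. The shares of number and stage within a gene are thus not directly comparable. The number's share was highest in CD22 (86.3%) and PAX5 (84.3%) and lowest in BANK1 (54.1%) and BLK (54.7%). The stage's share was 34.7% for BLK and 16.2% for CD79B, the genes that passed with the block, and 3.96 to 12.7% for the other 6.

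**Figure D3:**
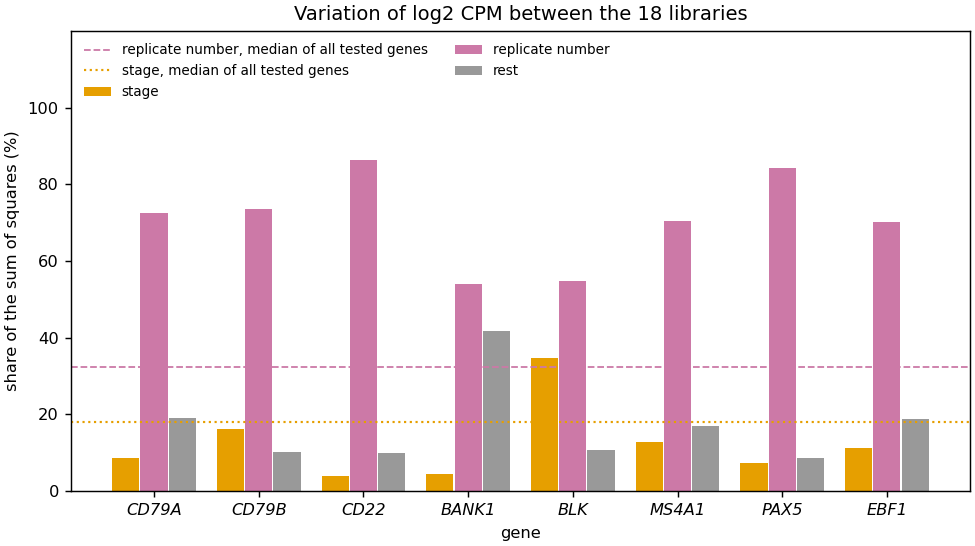
Share of the sum of squares of log2 CPM over the 18 libraries (vertical axis, percent) that lay between stages, between replicate numbers and in the rest, for each B cell gene, with the medians over all tested genes as lines. The bars for the replicate number stand at 54.1 to 86.3%, all above the line at 32.3%.

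Over the 18 libraries, 7 of the 8 genes varied together. The 21 pairs among MS4A1, CD79A, CD79B, PAX5, EBF1, BANK1 and CD22 had a Pearson r of log2 CPM of 0.67 to 0.96, with a median of 0.85, and the receptor chains CD79A and CD79B were the closest pair. The 7 pairs with BLK had an r of 0.11 to 0.36. After the stage means were subtracted, the medians were 0.86 and 0.18, and without Y-E replicate 6 they were 0.82 and 0.17. These values are descriptions, since the libraries share the cows, their depth and their cell composition.

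**Figure D4:**
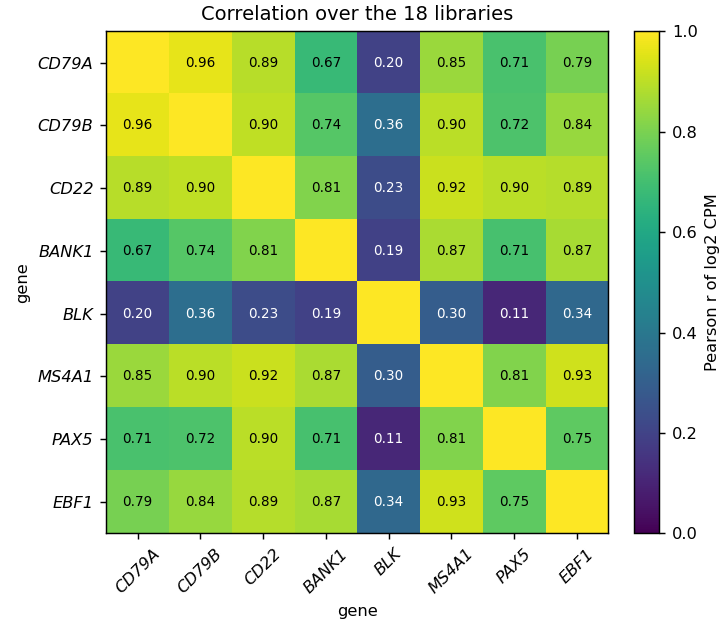
Pearson r of log2 CPM over the 18 libraries (colour scale from 0 to 1 and printed value) for each pair of B cell genes. The row and column of BLK hold 0.11 to 0.36, while the other pairs hold 0.67 to 0.96.

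The genes that most resembled the 8 were sought among all other tested genes, by the Pearson r between a gene's log2 CPM and the mean z-score of the 8 over the 18 libraries. The closest was HLA-DOA (r = 0.95), a subunit of the class II modulator that B cells carry. FCRLA, an intracellular Fc receptor-like protein of B cells, had an r of 0.94. RNF144A, ZBTB32, ARHGAP24, KIAA0040, BCL11A, BLNK, HDAC9 and WDFY4 followed, with an r of 0.93 to 0.91. BLNK is the linker that carries the signal from the receptor, and BCL11A is a transcription factor needed for B cell development. BLK itself had an r of 0.40 with the score that includes it, which placed it at rank 2077 of all tested genes.

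CD79A and MS4A1 did not keep one ratio over the libraries. CD79A had 610 CPM in Y-P replicate 2 and 764 CPM in Y-P replicate 3, above all other libraries, while MS4A1 had 352 and 565 CPM there. The ratio of CD79A to MS4A1 was 1.73 and 1.35 in this pair and 0.551 to 1.19 in the other 16 libraries. CD79A is the shortest of the 8 genes by the exon length that its counts and FPKM imply (959 bases), and MS4A1 is next (2351 bases).

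Short and long genes were not at the same relative level in every library. The median level of 1758 genes shorter than 1500 bases, set against that of 2253 genes of 4000 bases or longer, was 0.31, 0.49 and 0.28 higher on the log2 scale in Y-P replicates 2, 3 and 5 and −0.28 to 0.05 in the other 15 libraries. In Y-P replicate 5 the ratio of CD79A to MS4A1 was 0.801, within the range of the rest. An alternative added after seeing the values left out Y-P replicates 2 and 3, picked for their high CD79A level. A fall of CD79A in the comparisons with pregnancy was thus fixed in advance and tests nothing. Without both libraries CD79A stood at −0.22 in Y-P vs. Y-A and −0.04 in Y-P vs. Y-E, where it was 0.37 and 0.55 with them. CD79B went from 0.44 to 0.10 and from 0.63 to 0.29, while BLK stood at 0.40 and 0.52. With all libraries and each library's trend on gene length removed, another alternative added after seeing the values, CD79A stood at 0.30 in Y-P vs. Y-A and 0.46 in Y-P vs. Y-E, and CD79B at 0.44 and 0.62.

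**Figure D5:**
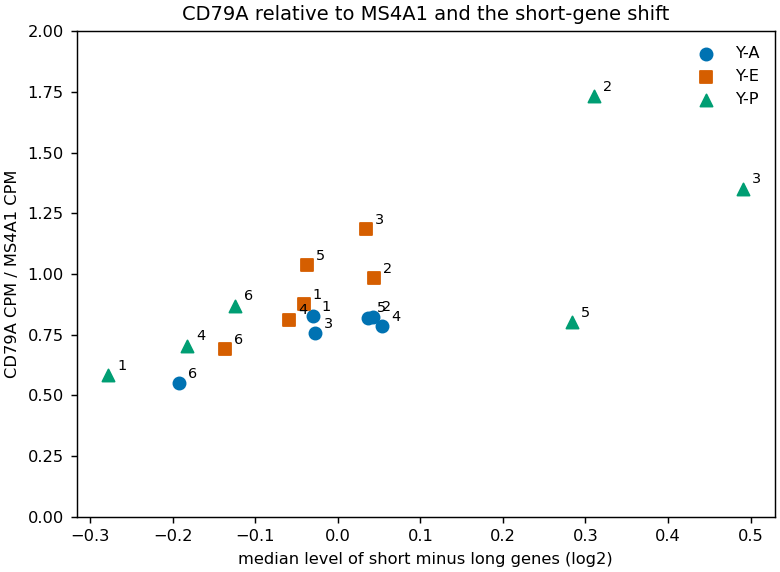
Ratio of CD79A to MS4A1 in CPM (vertical axis from 0) against the median level of short minus long genes on the log2 scale (horizontal axis) in the 18 libraries, with replicate numbers beside the points and the stage by colour and shape. Y-P replicates 2 and 3 stand at 1.73 and 1.35, above all other libraries, and Y-P replicate 5 stands at 0.801.

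Around the receptor, 21 of 25 listed genes of B cell receptor signalling were tested. In Y-P vs. Y-E, where 8.68% of all tested genes fell and 5.77% rose, 3 of them fell and none rose: PIK3CD, a catalytic subunit of phosphoinositide 3-kinase, by 0.85 on the log2 scale (adjusted p = 0.00194 by edgeR), the kinase SYK by 0.36 (adjusted p = 0.0466) and the exchange factor VAV1 by 0.37 (adjusted p = 0.0149). All 3 are also used by other white blood cells. PTPN6 and INPP5D, phosphatases that damp the signal and with PIK3CD and SYK the highest of the list in FPKM, stood at −0.24 and −0.20 (adjusted p = 0.123 and 0.132 by edgeR). With the replicate block 4 rose and 4 fell, where 7.22% of all tested genes rose and 10.8% fell. FCRL1, an activating coreceptor of B cells, and FCRLA were among the former, at 0.66 and 0.69 with adjusted p-values of 0.00343 and 0.0355 by edgeR, against 0.63 and 0.65 (adjusted p = 0.0796 and 0.263) without the block.

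A row described as immunoglobulin heavy constant mu (ENSBGRG00000008676), chosen after its values were seen, gives the chain to which CD79A and CD79B bind. It had 604, 1355 and 1719 CPM (lowest, median, highest) in the Y-E group and 974.8, 1846 and 2300 CPM in the Y-P group, which overlapped. Without the block it stood at 0.51 (adjusted p = 0.18 by edgeR) and with it at 0.54 (adjusted p = 0.00513), higher in pregnancy in 6 of 6 numbers. In Y-P vs. Y-A it stood at 0.45 (adjusted p = 0.292 by edgeR) without the block and at 0.47 (adjusted p = 0.021) with it, again higher in pregnancy in 6 of 6 numbers, and in Y-E vs. Y-A at −0.06 and −0.07. Its lowest means were in numbers 5 and 6, as for 7 of the 8 genes. Of the receptor signalling genes, FCRL1, FCRLA and VAV2 were among those that also differed between the numbers.

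The other lists were counted in the same fit without a block. In Y-E vs. Y-A no gene of any list passed. In Y-P vs. Y-A the median over all tested genes was 0.03, and none of the 21 receptor signalling genes passed. LEF1, a transcription factor of lymphocytes, was the 1 of 18 B cell transcription factors that rose. Of 18 surface receptors and antigen presentation genes, CD27, CCR7 and CD5 rose and none fell. T cells carry these 3 as well, and of 10 T cell genes LAT, CD5, CD3G and ZAP70 rose.

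In Y-P vs. Y-E, 3 of 18 transcription factors rose, which were LEF1, IRF8 and ETS1, and 2 fell, SPI1 and BACH1, the former a factor of myeloid and B cells at −1.16 (adjusted p = 0.000800 by edgeR). SPI1, ETS1, LEF1 and IKZF1 were the highest of that list in FPKM, and IKZF1, an Ikaros factor of lymphocytes, stood at −0.13 (adjusted p = 0.458 by edgeR). Of the 18 surface genes CD27, CCR7 and CD5 rose and CD24 fell, and the median of the list was 0.25 against 0.04 over all tested genes. CD74, the class II invariant chain and the highest of that list in FPKM, stood at 0.25 (adjusted p = 0.537 by edgeR). CD37 and LTB, also among the highest of the list in FPKM, stood at −0.07 and 0.32 and did not pass. None of 7 plasma cell genes passed, and the highest in FPKM, XBP1, DERL3, POU2AF1 and PRDM1, stood at 0.24, 0.51, 0.26 and −0.09 (adjusted p = 0.194 to 0.777 by edgeR). PIGR, a carrier of immunoglobulin rather than a chain of it, was the only tested gene under the names listed as immunoglobulin chains, and it did not pass in any comparison.

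Beside these, 5 of 10 T cell genes and 1 of 5 NK cell genes rose in Y-P vs. Y-E, and 5 of 7 neutrophil genes, 1 of 8 monocyte genes, 4 of 6 red cell genes and 2 of 5 platelet genes fell. In Y-P vs. Y-A, 1 of 7 neutrophil genes, 6 of 6 red cell genes and 2 of 5 platelet genes fell, and no monocyte or NK cell gene passed. Among all tested genes, 5.77% rose and 8.68% fell in Y-P vs. Y-E, and 2.22% rose and 3.61% fell in Y-P vs. Y-A.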

How the data were processed

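The authors trimmed the reads (cutadapt 1.9), aligned them with HISAT2 2.2.1 to the Bos grunniens genome and assembled transcripts with StringTie 2.1.6, versions per the submitters' processing notes. The authors deposited counts, whole numbers per gene that were not normalized, and FPKM values, scaled by exon length and mapped fragments. How the counts were made, and whether strand was used, is not given in the sources used here. Samples were assigned to stages by their titles.

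The test of the counts was edgeR's two-sided quasi-likelihood test (version 4.0.16 in R 4.3.3) with stage as the factor over all 18 libraries, after filterByExpr and TMM scaling, and p-values were adjusted by Benjamini-Hochberg over all genes tested in a comparison. SEs were taken from the fitted log2 fold change and F. Where a result names the replicate block, the number was added as a factor. The study's stricter rule, which adds a log2 fold change of 1 or more in size, was met by none of the 8 genes in any comparison. Alternatives used DESeq2 1.42.0 and limma 3.58.1 on log2(FPKM + 1) and log2(FPKM + 0.1). The limma fits kept genes with a mean FPKM of at least 1 in at least 1 stage. The other alternatives were factors from library size only, RLE factors, no low-count filter, only the 2 stages compared, exclusion of hemoglobin genes and each library left out. The length trend of each library (lowess, span 0.3) as an offset, and the fits without Y-P replicates 2 and 3, were added after seeing the data. Y-P replicates 2 and 3 were left out because their CD79A level stood above the others. Python 3.11.15 with numpy 2.4.6, pandas 2.3.3 and matplotlib 3.10.9 made the summaries and figures. On simulated counts for Y-P vs. Y-A over 15205 genes, 72 of 93 tested genes changed 1 log2 unit and 100 of 100 changed 2 units were recovered. There were 6 false calls. Every simulated gene had the same dispersion, the median over the genes, and no structure of replicate numbers was simulated. The recovery is thus not that of the 8 genes, whose own spread was not used.

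The replicate numbers were taken to pair the libraries because the study tracked the same cows. As a check, deviations from the stage means were correlated between libraries of one number. Over all tested genes r was 0.110 to 0.515 for Y-E and Y-A, −0.049 to 0.369 for Y-P and Y-A and −0.054 to 0.400 for Y-P and Y-E. Of 6 pairs, 6, 4 and 4 were over 0.1. Over the 8 genes r was 0.579 to 0.926, −0.599 to 0.902 and −0.508 to 0.887, with 6, 4 and 3 pairs over 0.1. The library of the same number was the best match for 6, 4 and 4 of 6 numbers over all tested genes. Over the 8 genes it was so for 5, 2 and 2. The pairing is thus less clear in the comparisons with pregnancy, where the blocked calls were made. If a number does not name a cow, p-values measure only the spread between these libraries.

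The members and the gene lists were chosen with earlier results of these data known. Genes named singly were the members, in each list the 4 genes of highest mean FPKM and those that passed, and the 10 genes most like the members. Lists of other blood cells are given mostly by their counts, and a few genes that this rule names are not reported here. FCRL1, VAV2, CD163 and the immunoglobulin heavy constant mu row fall outside that rule and were named after their values were seen.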

Additional observations from a re-analysis of the deposited data

Results flagged for a closer look

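In a test of each stage's 6 libraries for a single value far from the others (Dixon's test at the 95% level), 2 of 24 groups of gene and stage stood out, both for BLK. BLK was at 67.51 CPM in Y-E replicate 4, where the other 5 libraries lay between 33.1 and 41.8 CPM. BLK was at 90.38 CPM in Y-P replicate 4, where the others lay between 50.8 and 62.1 CPM. Chance marks about 1 in 20 such groups. In the Y-A group the library numbered 4 was also the highest for BLK, at 61.0 CPM. Without Y-E replicate 4 the log2 fold change of BLK in Y-P vs. Y-E was 0.65 (adjusted p = 0.011 by edgeR). It passed the threshold there without a block. That library was flagged for its high BLK level, so a rise of the estimate was fixed in advance and tests nothing. Over the 18 fits without a block that each left out 1 library, the estimate ran from 0.34 to 0.65. BLK passed in 1 of them.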

How the results depend on the processing

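With at least 207 counts for every gene and library, depth did not limit these genes. Scaling by library size only moved the median of all tested genes from 0.03 to 0.19 in Y-P vs. Y-A and from 0.04 to 0.18 in Y-P vs. Y-E. In Y-E vs. Y-A none of the 8 genes passed under any alternative. In Y-P vs. Y-A, 1 passed with the replicate block and none under the other alternatives that kept all libraries. In Y-P vs. Y-E, BLK made the count 1 under DESeq2, library size only, limma with either pseudocount and the fit without Y-E replicate 4, so that leaving out 1 library gave 0 to 1. With the replicate block, BLK and CD79B made it 2, with or without the length trend as an offset. Blocked fits that left out 1 library gave 0 to 2 genes in Y-P vs. Y-A and 2 to 6 in Y-P vs. Y-E. There BLK ranged from 0.2700 to 0.3875 and CD79B from 0.3609 to 0.5994 in Y-P vs. Y-A. The replicate block changed no other call of the 8 genes. The count of genes differing between replicate numbers ran from 3 to 7.

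Log2 fold changes that were not called turned sign as follows, and the cause was not tested. MS4A1 in Y-P vs. Y-A was 0.002269 with DESeq2, 0.001538 with RLE factors, 0.00406 without the low-count filter, 0.137 with library size only, 0.2446 and 0.2463 with limma (pseudocounts 1 and 0.1), 0.06648 with the replicate block and 0.05336 with the block and length trend. CD22 in Y-P vs. Y-A was 0.09717 with library size only, 0.1917 and 0.1953 with limma, 0.0003242 with the length trend and 0.03561 with block and length trend. PAX5 in Y-P vs. Y-E was 0.08779 with library size only and 0.1339 and 0.1483 with limma. BANK1 in Y-P vs. Y-A was −0.01438 with only the stages compared. Without Y-P replicates 2 and 3, the libraries picked for their high CD79A level, CD79A was −0.2181 in Y-P vs. Y-A and −0.03889 in Y-P vs. Y-E. CD22 was then −0.034 in Y-P vs. Y-E. With 1 library left out, Y-E vs. Y-A ran from −0.3634 to 0.03864 for CD79A and −0.3904 to 0.07889 for EBF1. Likewise, Y-P vs. Y-A ran from −0.1647 to 0.2081 for MS4A1, −0.1175 to 0.1195 for BANK1 and −0.1793 to 0.0858 for CD22. Y-P vs. Y-E ran from −0.2433 to 0.1761 for PAX5. The median r over the 28 pairs of the 8 genes was 0.80, and it was 0.82 on log2(FPKM + 1) and 0.76 without Y-E replicate 6.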
